A study of Sus scrofa with 23 samples.

Results

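The 96 genes described here encode the machinery that moves chromosomes at cell division: centromere and kinetochore proteins, spindle checkpoint proteins, Aurora and Polo-like kinases, kinesins, tubulins, centrosomal proteins and subunits of the anaphase-promoting complex. They were all the genes of the deposited expression table whose Ensembl symbol begins with CENP, KIF followed by a digit or C, BUB1 or BUB3, AURK, MAD1L or MAD2L, TUB followed by A, G, a digit or B with one of these, CEP followed by a digit, or ANAPC, or is PLK1 to PLK4, NDC80, NUF2, SPC24 or SPC25. The table holds 8603 genes, and 43 of the 139 annotated symbols that match were not in it. Its label marks the genes as differentially expressed (DEG), so all genes below means this set and not every annotated gene. The rule itself uses names only, though it was set with earlier results of these data known. By role, 20 members were centromere or kinetochore genes, 6 checkpoint genes, 4 mitotic kinases, 11 mitotic kinesins, 12 other kinesins, 7 tubulins, 2 gamma-tubulin complex genes, 26 centrosomal genes and 7 anaphase-promoting complex genes. AURKAIP1, a mitochondrial protein named for its binding to Aurora A, matched by name only. CENPJ, a centriole protein, also sits in the kinetochore group by its name.

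RNA was measured in 23 libraries of pig oocytes and preimplantation embryos, each a pool and each the only library of its condition in the table. The IV-D group came from in vivo fertilization of Duroc sows by 1 Duroc boar, with both sexes, and ran from the MII oocyte through embryos of 1, 2, 4 and 8 cells and the morula to 2 parts of the blastocyst. The knife cut gave one part that held inner cell mass with trophectoderm (IT) and one that held trophectoderm alone (TE). NT-D and NT-LW were clones, made by transfer of ear fibroblasts from that Duroc boar or from a Laiwu boar, 1 donor per group, into in vitro matured oocytes of hybrid sows, and were cultured in vitro and all male. The matured recipient oocytes formed the oocyte stage of both clone groups. Clones therefore differed from IV-D embryos in oocyte source, culture, sex and, for NT-LW, breed as well as in the transfer, and these cannot be told apart.

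When a cell divides, each chromosome builds a kinetochore on its centromere, and kinetochores hold the ends of spindle microtubules through the NDC80 complex. The spindle checkpoint keeps the anaphase-promoting complex inactive until every kinetochore is attached, after which that complex marks securin and cyclin B for destruction. An oocyte arrested at metaphase II holds a spindle ready to finish meiosis, and early cleavages run on proteins and RNA stored by the mother. In the pig the embryonic genome is known to become active in earnest around the 4-cell to 8-cell stages, and the oocyte, having lost its centrioles, builds its spindle without them.

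Depth was 14952784 to 22991067 fragments per library, and 3 fragments on a gene of 1 kb correspond to an FPKM of 0.130 to 0.201. FPKM counts fragments per kilobase of gene and scales them to the depth of the library. It does not correct for differences in RNA composition, so a comparison of levels between libraries depends on the scaling. Median-ratio factors, used to set the middle gene of each library to a common level, ran from 0.561 (IV-D 2-cell) to 1.58 (NT-D morula). A gene was called changed between 2 libraries when log2(FPKM + 1) differed by more than 1 and FPKM reached 1 in either of them. Replicate libraries that the study describes for some stages of IV-D and NT-D were not analysed here, so no difference below has a p-value or a spread between embryos. The intervals given with folds are exact 95% counting intervals (Clopper-Pearson on whole fragments recovered from the FPKM steps), and since amplified reads carry no molecular identifiers, they cover counting error only. For 34 of 90 members with a RefSeq position that was checked, exons overlap those of another gene, among them AURKB, PLK1, KIF23, KIF9, CEP44, CENPP, CENPK and CENPH, and whether the counting used strand is not given in the sources used here, so reads of such pairs may be mixed. In a pool, fewer cells of a kind and less RNA per cell cannot be told apart.

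The labels were read against marker genes. The summed FPKM of 10 oocyte genes in the table was 12180 in the IV-D oocyte, 2051 in 4-cell embryos, 57.4 in 8-cell embryos and 1.28 in TE, where 6 of the 10 had 0 fragments. In the clones these genes stood higher at the 8-cell stage, at 469.8 in NT-D and 545 in NT-LW. The trophectoderm list, with 7 genes in the table, summed to 32.0 in IV-D 8-cell embryos, 487 in morulae, 1424 in IT and 1348 in TE. The inner cell mass list, with 5 genes in the table, summed to 93.6 in IV-D IT and 170 in IV-D TE, with a median gene at 11.6 and 0.821. NANOG (9.80 and 0), KLF17 (14.2 and 0.821), GDF3 (8.26 and 1.22) and PDGFRA (11.6 and 0.0614) were higher in IV-D IT than in TE. DPPA5 went the other way, at 49.6 and 168. The summed lists thus did not separate IT from TE in IV-D, but the inner cell mass genes other than DPPA5 did. In both clone groups NANOG, PDGFRA and DPPA5 were higher in IT than in TE. GDF3 went the other way there, at 9.68 and 14.0 in NT-D and 6.73 and 9.08 in NT-LW. KLF17 had 2.56 and 1.18 in NT-D but 2.45 and 3.30 in NT-LW. The labels of the parts come from the dissection.

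The promoters of the 4 subunits of the NDC80 complex are shown first, because their transcripts moved in different directions as the embryonic genome came into use. Each is the 250 bases before the gene start of RefSeq on Sscrofa11.1, written 5′ to 3′ on the coding strand, which is the minus strand for all 4. The regions are chr6:104055786-104056035 for NDC80, chr4:87194194-87194443 for NUF2, chr2:69890315-69890564 for SPC24 and chr15:75371276-75371525 for SPC25. Capitals mark matches, on either strand, to motifs found in promoters of cell cycle genes: the CHR element (TTTGAA or TTCGAA, the latter the same on both strands), the CCAAT box (CCAAT) and the E2F site (TTTCCCGC or TTTGGCGC).
NDC80: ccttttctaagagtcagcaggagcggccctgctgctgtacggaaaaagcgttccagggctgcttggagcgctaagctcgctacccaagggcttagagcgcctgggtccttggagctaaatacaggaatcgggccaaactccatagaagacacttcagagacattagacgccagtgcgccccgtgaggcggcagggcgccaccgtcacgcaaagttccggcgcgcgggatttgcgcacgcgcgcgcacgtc
NUF2: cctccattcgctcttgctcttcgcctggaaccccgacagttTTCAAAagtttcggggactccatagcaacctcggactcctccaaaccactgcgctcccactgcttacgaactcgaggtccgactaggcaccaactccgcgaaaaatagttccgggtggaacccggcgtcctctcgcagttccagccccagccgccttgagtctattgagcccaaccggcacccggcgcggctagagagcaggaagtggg
SPC24: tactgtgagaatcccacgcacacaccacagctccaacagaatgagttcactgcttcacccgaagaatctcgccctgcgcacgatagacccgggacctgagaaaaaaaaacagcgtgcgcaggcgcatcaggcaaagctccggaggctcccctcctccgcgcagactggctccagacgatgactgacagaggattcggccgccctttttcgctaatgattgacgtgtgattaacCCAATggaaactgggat
SPC25: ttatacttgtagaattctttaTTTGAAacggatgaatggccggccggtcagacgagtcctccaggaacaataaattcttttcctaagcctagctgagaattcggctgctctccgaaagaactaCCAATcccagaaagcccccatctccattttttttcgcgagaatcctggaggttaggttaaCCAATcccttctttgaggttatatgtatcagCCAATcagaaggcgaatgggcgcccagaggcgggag
NDC80 held no match, NUF2 held 1 CHR element, SPC24 held 1 CCAAT box, and SPC25 held 1 CHR element and 3 CCAAT boxes. The CHR element was found in 17 of 90 member promoters (18.9%) and in 13.9% of 19506 promoters of the same length. The CCAAT box was found in 42.2% of member promoters against 31.9% of all, and the E2F site in 7.78% against 1.98%. Short motifs occur often by their length alone, and a match describes letters, not binding.

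The highest IV-D library was the oocyte for 26 of the 96 members, the 1-cell embryo for 13, the 2-cell embryo for 6, the 4-cell embryo for 15, the 8-cell embryo for 18, the morula for 8, and IT and TE for 5 each. Over all genes of the table, the shares were 9.30%, 16.4%, 6.27%, 14.7%, 17.4%, 10.5%, 12.4% and 13.1% in the same order. BUB1B, KIF18A, KIF20B, CEP57 and CEP57L1 were among those highest in the oocyte. AURKB, BUB3, CENPF, KIF11, MAD2L1 and SPC25 were among those highest in the 8-cell embryo, and 4 of the 8 members highest in the morula were TUBA1B, TUBB4B, TUBB6 and KIF22. Summed over all members, FPKM was 0.979% of the table's total in the IV-D oocyte and 0.282% in TE.

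**Figure D1:**
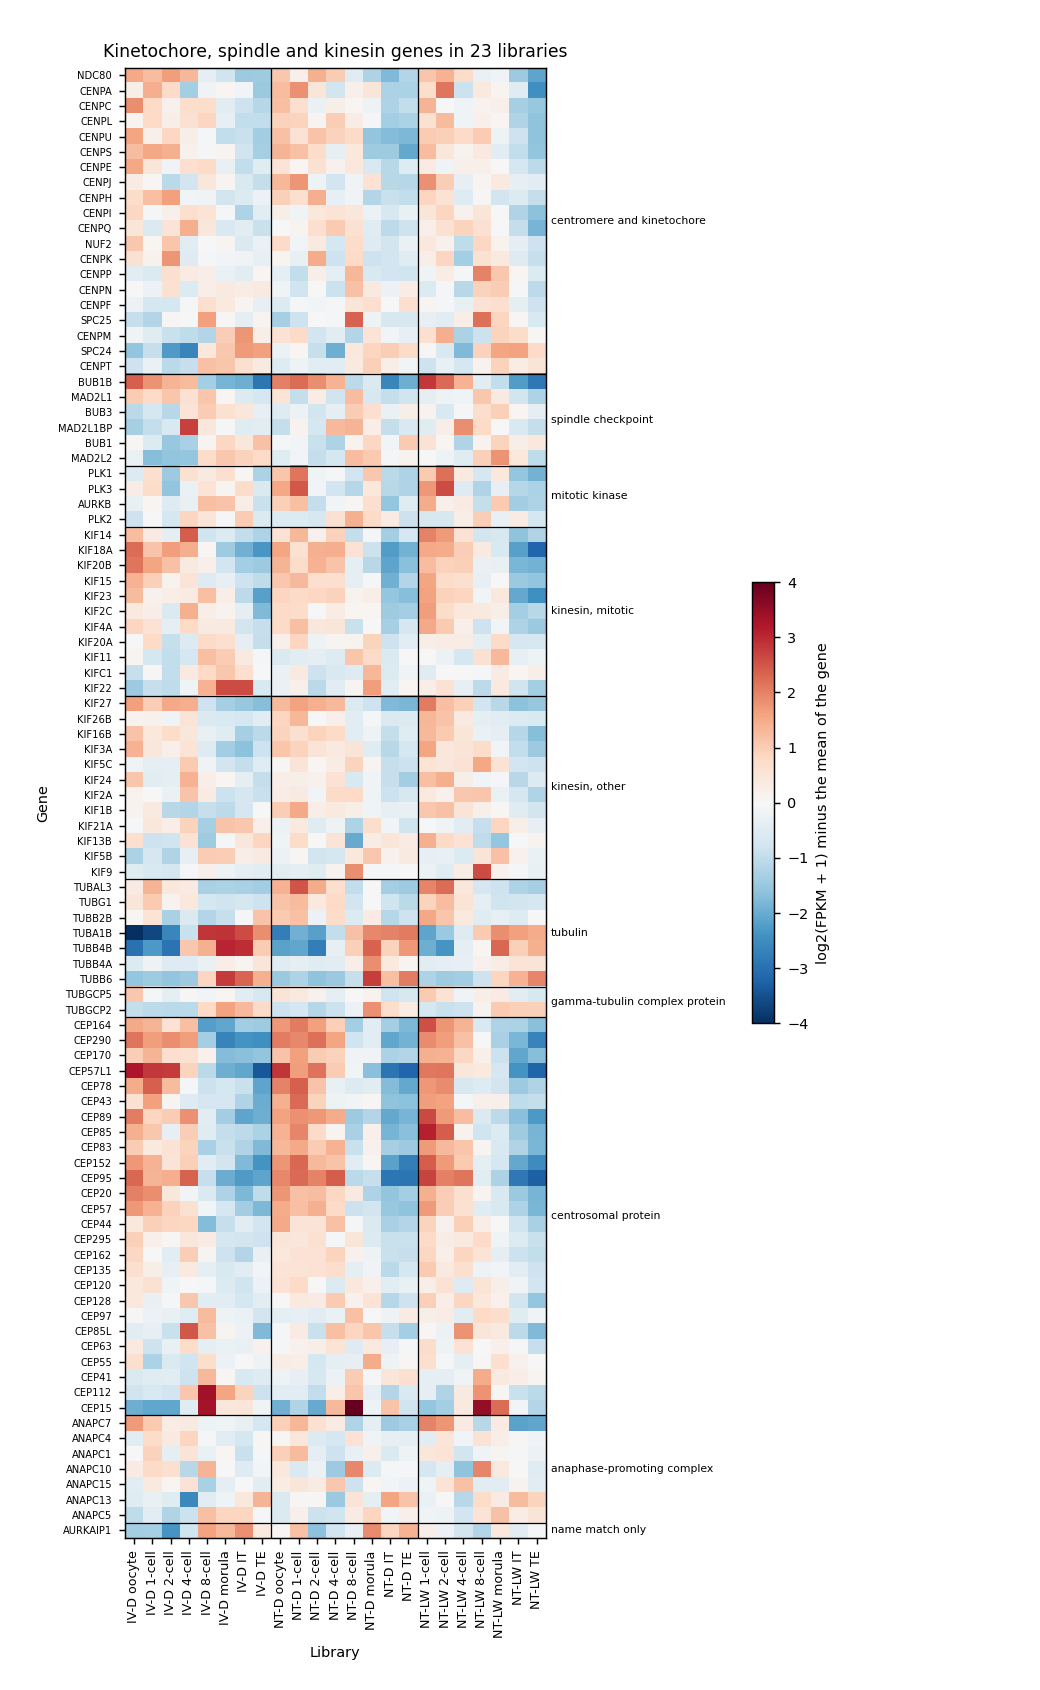
Expression of the 96 members (rows, grouped by role) in the 23 libraries (columns), as log2(FPKM + 1) minus the mean of the gene over all libraries, on a colour scale from -4 to 4. Of the 26 centrosomal rows 12 in IV-D, 13 in NT-D and 8 in NT-LW were called lower from the 4-cell to the 8-cell column, while TUBA1B, SPC24 and CEP15 turn from low to high.

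Before the 4-cell stage, groups with few members called also had few genes called over the whole table. From oocyte to 1-cell embryo 22.4% of members and 21.4% of all genes were called in IV-D. The shares were 7.87% and 8.67% in NT-D and 6.74% and 8.51% in NT-LW. From 1-cell to 2-cell embryo they were 23.5% and 31.2% in IV-D, 30.3% and 29.0% in NT-D, and 5.68% and 7.14% in NT-LW. From oocyte to 1-cell embryo 5 of 85 members rose and 14 fell in IV-D, where 13.7% of all genes rose and 7.64% fell. The falls included 5 kinetochore genes, such as CENPU (113 to 42.7) and CENPE (111 to 52.6), and CENPA rose from 8.46 to 21.2. From the in vitro matured oocyte 4 of 89 rose and 3 fell in NT-D (7.11% and 1.56%), and 5 of 89 rose and 1 fell in NT-LW (7.29% and 1.22%). Under median-ratio scaling none rose and 7 fell in NT-D. MAD2L1 led the falls of NT-D, from 266 to 95.

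From 1-cell to 2-cell embryo, 6 of 85 rose and 14 fell in IV-D (6.59% and 24.6%), and 4 of 89 rose and 23 fell in NT-D (2.45% and 26.5%). The median gene of the table fell by 0.41 and 0.53 on the log2 scale here, and under median-ratio scaling the balance turned, to 13 higher and 6 lower in IV-D and 15 and 7 in NT-D. Of the 6 that rose in IV-D, 5 were kinetochore genes, led by CENPK, from 129 to 385, and CENPK rose from 91.9 to 319 in NT-D. PLK1 fell from 19.0 to 3.69 in IV-D and from 55.4 to 10.4 in NT-D. NT-LW had 2 of 88 higher and 3 lower (2.83% and 4.31%), and PLK1 rose there, from 25.9 to 58.1.

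From the 2-cell to the 4-cell stage in IV-D, 23 of 90 members tested rose and 10 fell, beside 34.4% of all genes higher and 12.3% lower. The rises were led by TUBB4B, CEP85L, MAD2L1BP and KIF14, and 6 of the 10 falls were kinetochore genes, among them CENPK and CENPA. No kinetochore gene was called higher at this step in any group, and 6 fell in NT-D and 9 in NT-LW. In NT-D 7 of 89 members rose and 12 fell (all genes 17.3% and 8.36%), and in NT-LW 5 of 91 rose and 24 fell (16.5% and 19.9%). The IV-D 2-cell and 4-cell libraries stood apart in scale, since the median gene moved by 0.46 on the log2 scale. After median-ratio scaling, which sets the middle gene of each library to a common level, 14 members rose and 22 fell in IV-D.

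Between 4-cell and 8-cell embryos 24 of 94 IV-D members rose (25.5%) and 29 fell (30.9%), where 35.0% of all genes rose and 28.1% fell. Of the kinetochore genes 5 rose and 1 fell, of the tubulins 2 rose and 2 fell, and of the centrosomal genes 5 rose and 12 fell. The median log2 difference was -0.20 over members and 0.25 over all genes. Under median-ratio scaling the counts were 20 higher and 38 lower. NT-D gave 22 higher and 29 lower of 91 (all genes 31.4% and 28.7%), with 13 centrosomal genes lower and 6 kinetochore genes higher. NT-LW gave 22 higher and 20 lower of 94 (28.1% and 25.6%), and 7 kinetochore genes rose with none lower. For NT-LW the balance turned under median-ratio scaling (19 and 27).

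From 8-cell embryo to morula, 6 of 89 IV-D members rose and 18 fell (12.3% and 13.6% of all genes). Of the 18, 9 were centrosomal and 5 were kinetochore genes, and the 6 that rose were KIF21A, CENPM, TUBB6, TUBB4B, KIF13B and KIF22. NT-D had 16 higher and 21 lower of 95 (31.6% and 12.0%), where 9 kinetochore genes fell and 4 tubulins rose. With the table rescaled to a common sum these were 24 and 17, and under median-ratio scaling 13 and 28. NT-LW had 10 higher and 12 lower of 93 (22.4% and 12.4%), which became 16 and 10 on rescaling and 8 and 25 under median-ratio scaling.

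From morula to TE, more members fell than rose in every group. In IV-D 3 of 88 rose and 24 fell (12.0% and 24.6% of all genes), 7 of the 24 being mitotic kinesins and 7 centrosomal. In NT-D 1 of 94 rose and 37 fell (8.66% and 38.5%), including 13 centrosomal genes and all 4 kinases. In NT-LW 2 of 90 rose and 52 fell (8.79% and 40.3%), including 14 of 20 kinetochore genes, 9 of 11 mitotic kinesins and 17 centrosomal genes. The median gene of the table also fell, by 0.69 in NT-D and 0.78 in NT-LW on the log2 scale, and by 0.37 in IV-D. After median-ratio scaling the falls numbered 16 in IV-D, 14 in NT-D and 18 in NT-LW.

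Within the NDC80 complex, 4 proteins that join one to one in the finished complex had transcripts with different courses. The genes are NDC80 (ENSSSCG00000003697, chr6:104000794-104055785), NUF2 (ENSSSCG00000006333, chr4:87162873-87194193), SPC24 (ENSSSCG00000033444, chr2:69884304-69890314) and SPC25 (ENSSSCG00000015924, chr15:75339171-75371275), with RefSeq positions on Sscrofa11.1. NDC80, whose head binds microtubules, had FPKM of 161, 132, 179, 141, 43.1, 31.7, 19.7 and 19.9 in the IV-D oocyte, 1-cell, 2-cell, 4-cell and 8-cell embryos, morula, IT and TE. It was high through the 4-cell stage and 3.27-fold lower at the 8-cell stage (3.16 to 3.39; log2 difference -1.69). Its partner NUF2 had 202, 100.2, 203, 68.6, 94.6, 102, 62.9 and 78.8 in the same order, and its 4-cell to 8-cell difference was not called. SPC24, which with SPC25 anchors the complex at the centromere, had 14.7, 23.9, 8.75, 6.59, 62.1, 98.2, 155 and 145. SPC24 was thus lowest at the 4-cell stage and 9.43-fold higher at the 8-cell stage (7.52 to 12.0). SPC25 had 26.9, 22.7, 54.1, 51.6, 166, 53.9, 40.4 and 56.3, with a peak at the 8-cell stage 3.22-fold above the 4-cell stage (3.06 to 3.39). The ratio of NDC80 to SPC25, in FPKM, was 5.99 in the oocyte, 2.74 in the 4-cell embryo and 0.260 in the 8-cell embryo.

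The courses of NDC80 and SPC25 were similar in the clones. In NT-D, NDC80 had FPKM of 118, 63.8, 149, 114, 39.5, 23.1, 15.5 and 23.9 from oocyte to TE, and SPC25 had 20.4, 29.1, 52.5, 49.2, 273, 45.2, 33.6 and 33.5. In NT-LW, from the 1-cell stage, NDC80 had 121, 146, 91.9, 46.2, 49.9, 19.5 and 12.0, and SPC25 had 41.2, 38.3, 62.6, 246, 95.8, 54.6 and 34.1. SPC25 peaked at the 8-cell stage in all 3 groups, and the ratio of NDC80 to SPC25 there stood at 0.145 for NT-D and 0.187 for NT-LW. NUF2 rose at the same step in both clone groups, from 58.0 to 158 in NT-D and from 45.9 to 169 in NT-LW. The log2 difference of NDC80 at this step was -1.50 for NT-D and -0.98 for NT-LW, the latter just inside the limit for no call. SPC24 rose from 11.3 to 62.6 in NT-D and from 12.9 to 89.2 in NT-LW.

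**Figure D2:**
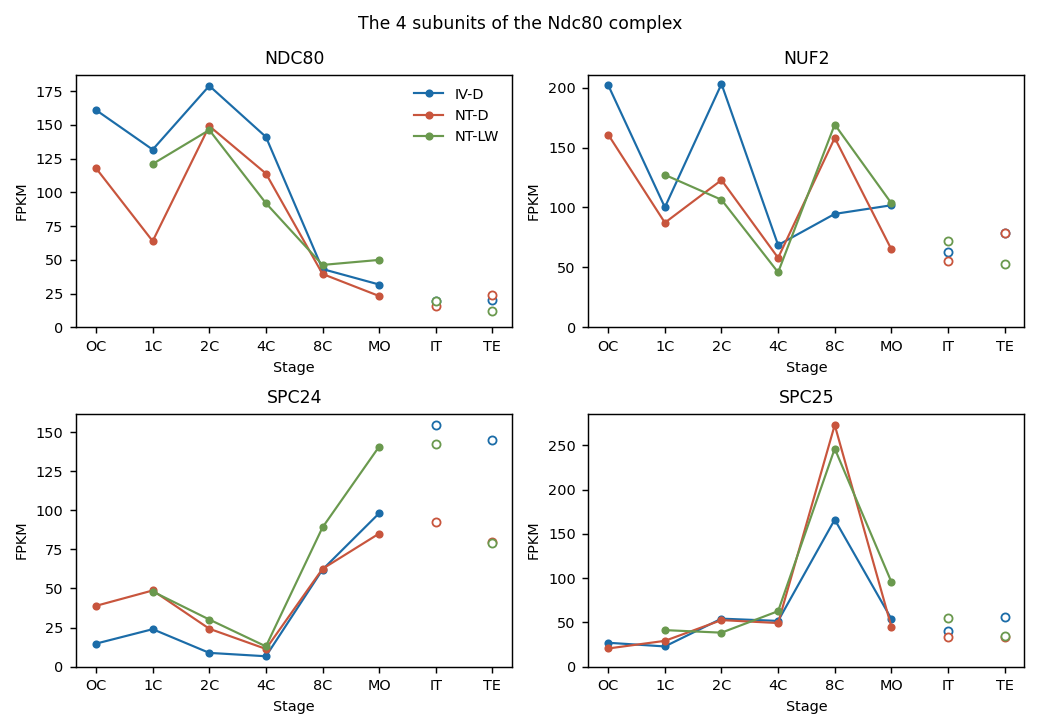
FPKM of NDC80, NUF2, SPC24 and SPC25 by stage in the IV-D, NT-D and NT-LW groups, 1 library per point, with IT and TE as open circles. NDC80 drops and SPC25 peaks at the 8-cell stage in all 3 groups, and SPC24 is higher in blastocyst parts than at the 4-cell stage.

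The other kinetochore genes were highest at different stages. CENPK and CENPH, of the constitutive centromere network, were highest in the 2-cell embryo of IV-D, with 385 and 263, and had 79.0 and 78.0 at the 4-cell stage. The CENPK fall was 4.87-fold (4.58 to 5.19), and in NT-LW the CENPK level went from 205 to 43.7. CENPA, the histone H3 variant that marks the centromere, had FPKM of 8.46, 21.2, 12.7, 2.16, 6.37, 7.51, 6.43 and 1.92 in IV-D. It was lowest in the 4-cell embryo and in TE, and in NT-LW it was 9.62 at the 8-cell stage, 7.74 in the morula and 0.480 in TE. CENPE, a kinesin that carries chromosomes to the spindle equator, had 111 in the IV-D oocyte and 64.6 at the 8-cell stage, and CENPF, a large protein of the outer kinetochore, had 14.4 and 27.6. CENPM was low in all IV-D cleavage stages, at 1.40 to 3.86 from oocyte to 8-cell embryo, and had 9.56 in the morula and 17.2 in IT. CENPN, which binds CENPA nucleosomes, had 53.0 to 117 in all IV-D libraries.

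Checkpoint genes showed both courses. MAD2L1, part of the inhibitor that holds back the anaphase-promoting complex, was the most abundant member in several libraries, with FPKM of 382, 318, 402, 283, 408, 196, 127 and 116 in IV-D. NT-D had 266, 95, 228, 106, 443, 119, 96.1 and 108, and NT-LW had 144, 160.5, 165, 393, 242, 111 and 78.5. MAD2L1 was therefore high in all 3 groups at the 8-cell stage and 2.66-fold lower in NT-D than in IV-D at the 4-cell stage (2.60 to 2.72). BUB1B (ENSSSCG00000004782, chr1:131093026-131143840), the BubR1 subunit of the same inhibitor, had 165, 109, 81.0, 74.9, 11.4, 7.78, 7.16 and 3.32 in IV-D, so it fell 6.60-fold from the 4-cell to the 8-cell stage (6.16 to 7.08). It fell at that step in the clones too, from 83.1 to 14.5 in NT-D and from 82.1 to 22.1 in NT-LW. BUB3 went the other way at the 2-cell to 4-cell step, from 32.6 to 104, and had 143 at the 8-cell stage, while the kinase BUB1 had 3.0 in the 4-cell embryo, 9.65 in the 8-cell embryo and 20.8 in TE. MAD2L1BP, which helps to disassemble the inhibitor, had FPKM of 0.804, 1.35 and 1.93 before, 29.2 at, and 5.16 after the 4-cell stage in IV-D. Its 4-cell level was 10.05 for NT-D and 15.3 for NT-LW, which was a 2.91-fold difference in NT-D (2.60 to 3.25) and not called in NT-LW. MAD2L2, a protein also known from translesion DNA synthesis, rose from 3.32 to 19.6 between the 4-cell and 8-cell stages of IV-D.

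Subunits of the anaphase-promoting complex did not share one course. ANAPC10, which takes part in binding substrates, had FPKM of 14.8, 20.5, 18.8, 4.85, 31.8, 11.7, 7.96 and 10.8 in IV-D. The 4-cell dip and 8-cell peak recurred in NT-D, from 3.65 to 46.8, and in NT-LW, from 3.14 to 47.8. ANAPC13 had the same dip, from 37.5 to 8.09 at the IV-D 4-cell stage, and was highest in TE at 138, a 2.93-fold rise on the morula (2.72 to 3.16). Its exons overlap those of CEP63 on the opposite strand. ANAPC15, which promotes turnover of the checkpoint inhibitor, had 163 in the 4-cell embryo and 43.0 in the 8-cell embryo of IV-D, and 228 and 60.5 in NT-D. ANAPC7 was highest in the oocyte at 52.6 and had 9.06 in IV-D TE, 5.71 in NT-D TE and 2.90 in NT-LW TE.

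AURKB (ENSSSCG00000028924, chr12:53410833-53426165), the kinase that releases wrongly attached microtubules, stood at FPKM of 22.2, 29.5, 18.9, 22.5, 65.6, 62.6, 33.3 and 14.5 in IV-D. NT-D had 54.1, 65.3, 13.8, 25.3, 29.6, 45, 8.92 and 19.6, and NT-LW had 78.4, 31.8, 34.7, 13.7, 58.6, 10.05 and 11.2. At the 4-cell to 8-cell step it rose 2.92-fold in IV-D (2.60 to 3.28), was not called in NT-D (log2 difference 0.22), and fell 2.52-fold in NT-LW (2.17 to 2.94). PLK1, which acts at kinetochores, centrosomes and the midbody, had 7.88, 19.0, 3.69, 18.7, 15.6, 19.0, 12.4 and 4.42 in IV-D. It had 27.1, 55.4, 10.4, 11.3, 6.57, 26.5, 5.15 and 4.45 in NT-D and 25.9, 58.1, 15.9, 6.94, 16.1, 3.43 and 2.5 in NT-LW, and its exons overlap those of ERN2 on the opposite strand. PLK3, a stress-responsive relative, reached 20.7 in NT-D at the 1-cell stage and 22.7 in NT-LW at the 2-cell stage, against at most 5.46 in any IV-D library. PLK2 stayed at or below 3.87 in all 23 libraries. AURKA, AURKC and PLK4 were not analysed here.

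Of the 11 mitotic kinesins, 5 had their highest IV-D level in the oocyte, namely KIF15, KIF18A, KIF20B, KIF23 and KIF4A. KIF20B, which acts in cytokinesis, had FPKM of 364 in the IV-D oocyte, 106 at the 4-cell stage and 29.5 in TE. KIF18A, which limits the length of kinetochore microtubules, had 281, 162 and 10.9 at these points, and it fell at both the 4-cell to 8-cell step and the 8-cell to morula step. KIF4A, a chromokinesin of the central spindle, had 48.6, 46.4 and 13.2. KIF14, of the midbody, peaked at the IV-D 4-cell stage at 24.5, from 2.64 before and 1.71 after, where NT-D had 7.87 and NT-LW 6.02. KIF11, which pushes spindle poles apart, rose from 7.77 to 32.4 at the IV-D 8-cell stage and had 30.4 in NT-D and 21.2 in NT-LW. KIF23, a motor of the central spindle, had 111, 51.6, 55.4, 57.4, 107, 56.0, 21.8 and 9.36 in IV-D. KIF22, a chromokinesin, had 0.390, 1.0, 0.877, 2.38, 8.96, 22.5, 22.3 and 1.48. Its highest value outside IV-D was 11.3, in the NT-D morula, and from IV-D morula to TE it fell 15.2-fold (12.0 to 19.7).

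Among the other kinesins, which mostly carry cargo or serve cilia, KIF5B, the conventional kinesin heavy chain, rose from 18.2 to 47.7 at the IV-D 8-cell stage. KIF13B had 14.8 in the 4-cell embryo, 3.02 in the 8-cell embryo, 9.23 in the morula and 18.4 in TE of IV-D, and KIF21A showed a similar trough at the 8-cell stage, with 8.55, 1.01, 10.1 and 4.87. The KIF13B trough had 1.65 in NT-D, while NT-LW had 4.33 at the 8-cell stage and 2.68 in the morula. KIF2A, which depolymerizes microtubules, was highest at the IV-D 4-cell stage at 44.5. Of 11 other kinesins tested, 7 fell at the IV-D 4-cell to 8-cell step, among them KIF27, from 9.95 to 1.24, and KIF3A, a subunit of the motor of intraflagellar transport, from 13.7 to 5.95.

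TUBA1B (ENSSSCG00000000190, chr5:15150229-15153620) was the tubulin member with the highest level from the 2-cell stage on. Its FPKM was 2.32, 4.26, 9.90, 34.5, 482, 495, 403 and 239 in IV-D, 8.76, 16.5, 13.8, 32.7, 148, 249, 262 and 278 in NT-D and 14.2, 22.8, 45.6, 137, 239.6, 206 and 185 in NT-LW. From the 4-cell to the 8-cell stage it rose 14.0-fold in IV-D (13.3 to 14.7; log2 difference 3.77), by a log2 difference of 2.14 in NT-D and by less in NT-LW, from 45.6 to 137. Its highest level came in the morula in IV-D and NT-LW and in TE in NT-D. TUBB4B, a beta-tubulin found in most cells, had 0.105, 0.785, 0.151, 17.6, 22.5, 71.6, 67.5 and 16.9 in IV-D and rose 117-fold at the 2-cell to 4-cell step (72.6 to 201). In the clones its 4-cell level was 6.0 for NT-D and 5.89 for NT-LW. TUBB6 had 0.0787, 0.191, 0.0487, 0.153, 4.70, 21.1, 15.0 and 7.45 in IV-D, and TUBB2B had 3.28, 4.87, 0.638, 1.69, 0.770, 1.11, 2.86 and 7.96. Among the 4 beta-tubulin members the largest share thus passed from TUBB2B to TUBB4B. TUBB2B made up 93.8% of their summed FPKM in the IV-D oocyte, where the sum was only 3.49. TUBB4B made up 90.2% at the 4-cell stage, where it was 19.5. TUBB does not match the name rule, so these are not shares of all beta-tubulin RNA. In NT-D and NT-LW the TUBB4B share at the 4-cell stage was 50.1% and 55.6%. Tubulin genes are close copies of each other. TUBA1B and TUBB6 overlap genes on the opposite strand, and TUBB2B overlaps another gene on the same strand. How shared reads were counted is not given in the sources used here. Of the gamma-tubulin complex, TUBGCP5 had 15.0 in the IV-D oocyte and 3.84 to 7.04 after the 1-cell stage, and TUBGCP2 rose from 0.0848 to 3.0 at the 8-cell stage.

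**Figure D3:**
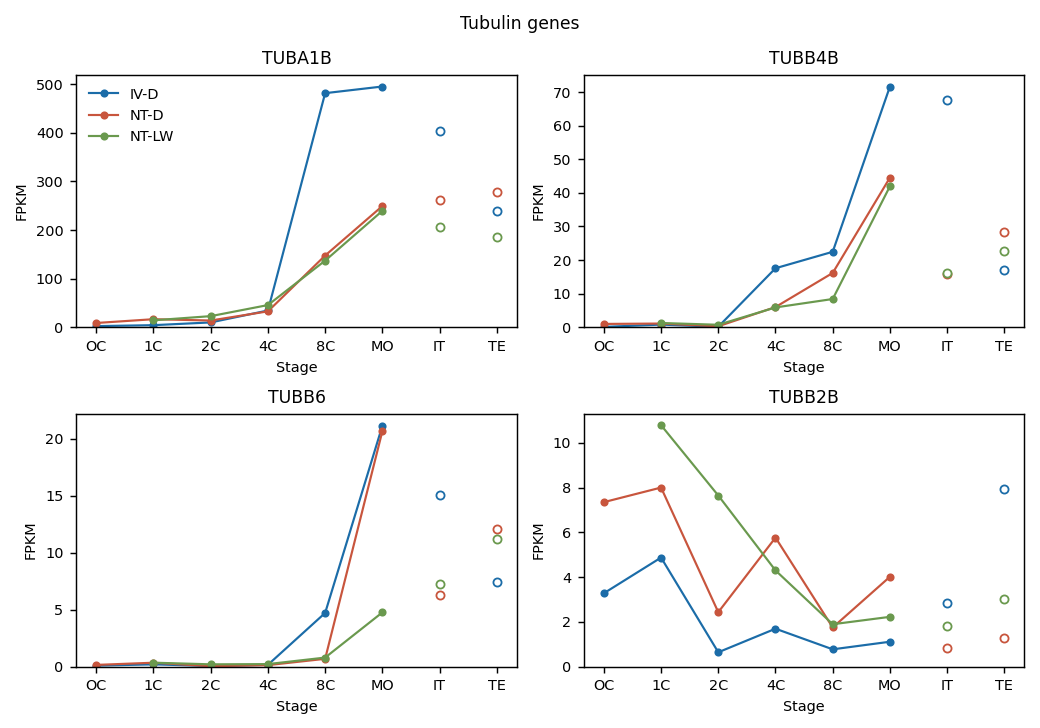
FPKM of TUBA1B, TUBB4B, TUBB6 and TUBB2B by stage in the 3 groups, 1 library per point, with IT and TE as open circles. IV-D TUBA1B jumps to 482 at the 8-cell stage against 148 and 137 in the clones, and TUBB2B is the highest of the 3 beta-tubulins before the 4-cell stage.

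The 26 centrosomal genes had a summed FPKM of 1463 in the IV-D oocyte, 935 in the 4-cell embryo, 361 in the 8-cell embryo and 129 in TE. CEP95 (ENSSSCG00000028925, chr12:14507841-14571651) had FPKM of 319.9, 167, 180.4, 340.0, 33.6, 15.5, 12.8 and 14.3 in IV-D, a 10.1-fold fall from the 4-cell to the 8-cell stage (9.66 to 10.6). It had 348 and 30.4 at these stages in NT-D and 289 and 47.6 in NT-LW. CEP57 and CEP57L1 are related proteins of spindle microtubules and the centrosome, and CEP57L1 had 300.03 in the IV-D oocyte and 2.04 in TE. CEP290 and CEP164, needed for the base of the cilium, had 52.6 and 14.7 at the IV-D 4-cell stage and 5.58 and 0.491 at the 8-cell stage. CEP152, a scaffold for centriole duplication, had 78.2 in the oocyte, 16.3 at the 8-cell stage and 3.54 in TE. A smaller set ran the opposite way. CEP15 had 0.107, 0, 0, 2.02, 41.5, 4.87, 4.94 and 2.75 in IV-D, a pulse at the 8-cell stage that was 20.6-fold above the 4-cell stage (14.1 to 31.2). The pulse reached 82.4 in NT-D and 47.7 in NT-LW. CEP112 had 33.0 at the IV-D 8-cell stage against 0.828 to 8.78 in every other IV-D library, and CEP85L, at 49.0, peaked at the 4-cell stage.

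Cloned embryos were then compared with IV-D embryos at the same stage, to see how transfer embryos handled this machinery. NT-D and NT-LW share the IV-D libraries as their baseline, so their values stand side by side and are not independent of each other. The recipient oocytes, matured in vitro, had 11 of 88 members higher and none lower than in vivo oocytes, where 13.3% of all genes were higher and 1.51% lower. All 3 kinases tested were among the 11, and PLK1 was 3.44-fold higher (3.02 to 3.93), TUBA1B 3.78-fold and SPC24 2.65-fold. Under median-ratio scaling 4 members stood higher and 9 lower. In 1-cell embryos 17 of 89 members were higher and 4 lower in NT-D (18.5% and 3.44% of all genes), and 29 of 88 were higher and 3 lower in NT-LW (20.8% and 4.12%), with 9 centrosomal genes among the 29. Median-ratio scaling gave 8 and 9 in NT-D, and 12 and 7 in NT-LW. At the 2-cell stage NT-LW had 28 of 86 higher and 3 lower (34.7% and 3.51%), which became 12 and 18. NT-D had 9 of 83 higher and none lower there (6.48% and 1.90%), which became 4 and 7, and SPC24, at 24.2 against 8.75, was among the 9.

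At the 4-cell stage NT-D had 4 of 91 members higher and 9 lower (9.74% and 13.2% of all genes), and NT-LW had 3 higher and 6 lower (10.8% and 9.43%). KIF14 was 3.11-fold lower in NT-D (2.83 to 3.42) and 4.06-fold lower in NT-LW (3.69 to 4.47). TUBB4B was 2.93-fold and 2.98-fold lower. KIF1B, an axonal cargo kinesin, was higher in both, at 6.08 and 6.64 against 1.39. ANAPC13 had 18.2 and 24.1 against 8.09. No kinetochore gene was called at this stage in either clone group, of 19 tested. The oocyte genes used as markers summed to 4146 in NT-D and 4014 in NT-LW here, against 2051 in IV-D, and the part of this in the differences was not tested.

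At the 8-cell stage 3 mitotic kinases, 4 of 11 mitotic kinesins, TUBA1B and TUBB6 were lower than IV-D in each clone group, and 4 other kinesins were higher in each. NT-D had 6 of 92 members higher and 15 lower (10.8% and 17.4% of all genes), and NT-LW had 12 of 93 higher and 13 lower (16.3% and 17.3%). The share of members lower was thus 16.3% in NT-D and 14.0% in NT-LW, below that of all genes in both. AURKB was at 29.6 for NT-D and 13.7 for NT-LW against 65.6 in IV-D, a 2.22-fold (2.01 to 2.45) and a 4.77-fold (4.15 to 5.51) difference. KIF23 was 50.5 and 42.6 against 107, KIF4A 13.5 and 14.2 against 33.6, and PLK1 6.57 and 6.94 against 15.6. KIF22 was 3.12 and 0.842 against 8.96. TUBA1B was 3.26-fold (3.18 to 3.35) and 3.51-fold (3.42 to 3.61) lower, and TUBB6 6.95-fold and 5.98-fold. CEP112 was 6.03 and 10.5 against 33.0, though its exons overlap those of AXIN2 on the same strand. AURKAIP1, the name match, was 5.75 and 2.63 against 24.1.

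No kinetochore gene was lower at the 8-cell stage in NT-D, and in NT-LW only CENPT was, at 1.45 against 4.01. CENPT stands outside the rule for named genes and was chosen after its values were seen. CENPP, of the constitutive centromere network, was higher, with 52.3 in NT-D and 83.7 in NT-LW against 24.8. Of 11 other kinesins tested, 4 were higher in each clone group, including KIF9, a kinesin of motile cilia (4.78 and 8.70 against 0.860), KIF1B (5.32 and 5.20 against 1.84) and KIF3A (13.1 and 15.6 against 5.95). CEP44, a centriole protein, was 12.4 and 15.8 against 3.14. CEP83, CEP57L1, CEP164 and CEP290 were higher in NT-LW. These last 4 were lower at the 8-cell stage than at the 4-cell stage of IV-D, and the oocyte marker genes were likewise higher in the clones (469.8 and 545 against 57.4). The part of such transcripts in the differences was not tested. With median-ratio scaling NT-D had 15 higher and 8 lower, and AURKB (-0.93), KIF23 (-0.88) and PLK1 (-0.94) in NT-D and PLK1 (-0.96) in NT-LW no longer reached a log2 difference of 1, with the direction kept. CENPP and KIF3A in NT-D did not reach it after rescaling to a common sum.

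**Figure D4:**
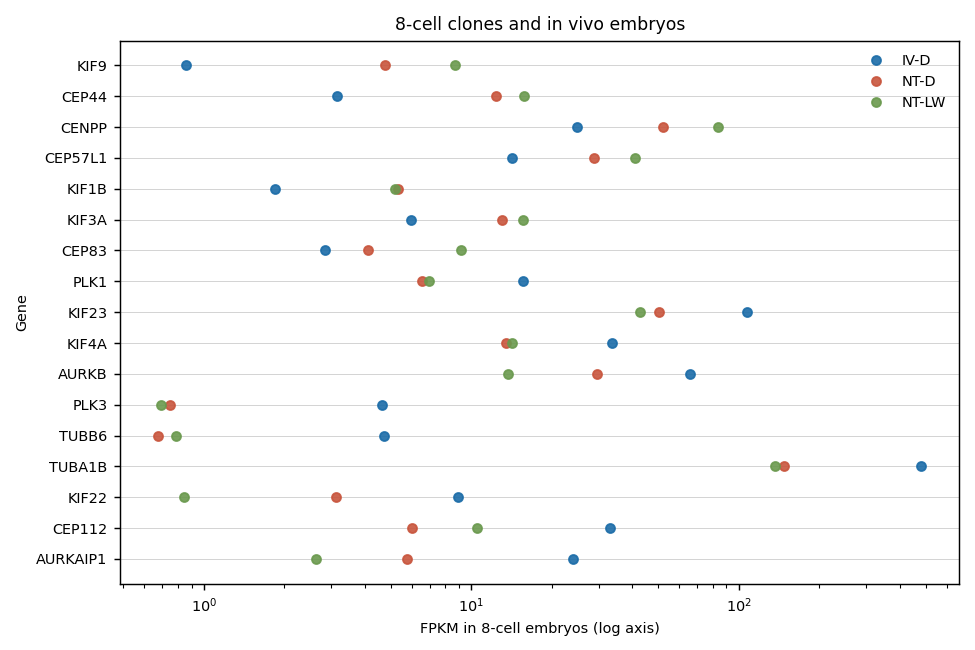
FPKM at the 8-cell stage, on a log axis, of 17 members in the IV-D, NT-D and NT-LW libraries, 1 point each. TUBA1B, AURKB, KIF23, KIF22 and CEP112 have the IV-D point to the right of both clone points, and KIF9, CEP44, CENPP, KIF1B and KIF3A have it to the left. PLK1, KIF23, TUBB6 and PLK3 were added after their values were seen.

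In morulae fewer motors and tubulins stood apart in NT-D, where CEP112 and CENPS were the 2 members called lower and TUBA1B, at 249 against 495, was not called. NT-D had 11 of 94 members higher and 2 lower (18.7% and 3.88% of all genes), 7 of the 11 being centrosomal, and the counts were 5 and 4 after median-ratio scaling. CEP290 had 11.4 against 1.67, CEP55, of the midbody, 13.4 against 3.40, and BUB1B 20.1 against 7.78, which passed the limit unscaled but had a log2 difference of 0.97 under median-ratio scaling. The oocyte genes summed to 348 in the NT-D morula and 13.2 in the IV-D morula, and their part was not tested. NT-LW had 7 of 89 higher and 5 lower (11.6% and 4.07%), which became 5 and 7. KIF22 (4.01 against 22.5), TUBB6 (4.75 against 21.1), CEP112 (2.42 against 8.78) and TUBA1B (239.6 against 495) were lower there. No mitotic kinase was called in either morula comparison.

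In TE few members differed. NT-D had 3 of 89 higher and 2 lower (3.13% and 4.23% of all genes): TUBB2B was 1.26 against 7.96 and CENPF 27.6 against 13.2. NT-LW had 1 of 87 higher and 8 lower (6.26% and 10.2%), and median-ratio scaling left 2 and 5. MAD2L2 was 5.20 against 20.3, CENPN 37.3 against 98.8 and CENPI 8.83 against 22.0. Between the clone groups, NT-LW TE had 0 of 88 members higher and 10 lower than NT-D TE (4.60% and 6.84%), and 5 of the 10 were kinetochore genes, including CENPF, CENPI, CENPN and CENPA. In morulae NT-LW had 8 of 94 higher and 6 lower than NT-D (7.02% and 14.1%), and 6 of the 8 were kinetochore genes, namely CENPP, CENPU, CENPK, NDC80, SPC25 and CENPS. With 1 library each, a difference between donors and one between pools cannot be told apart.

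The IT part of the IV-D blastocyst lay close to the morula. From morula to IT 1 of 88 members rose and 5 fell in IV-D (7.70% and 7.59% of all genes), against 2 and 42 of 94 in NT-D (9.31% and 35.1%) and 1 and 34 of 91 in NT-LW (9.10% and 28.1%). Median-ratio scaling gave 2 higher and 1 lower in IV-D, which turned the balance, 3 and 19 in NT-D and 3 and 10 in NT-LW. Set against IV-D IT, 2 of 89 members were higher and 15 lower in NT-D (9.47% and 15.4%), and none of 89 was higher and 10 were lower in NT-LW (8.70% and 13.7%). KIF22 was 1.78 in NT-D IT and 1.21 in NT-LW IT against 22.3, TUBB4B 15.7 and 16.2 against 67.5, and AURKB 8.92 and 10.05 against 33.3. Within the IV-D blastocyst 15 of 88 members were higher in IT than in TE and 1 was lower (18.0% and 9.83%), among them all 4 kinases, and KIF22 was 22.3 in IT and 1.48 in TE. NT-D had 2 higher and 2 lower (4.32% and 0.385%) and NT-LW 5 and 0 of 87 (5.07% and 1.18%). Since IT held both cell types, these values are no measure of inner cell mass alone. NANOG (5.00 and 3.76 against 9.80), KLF17 (2.56 and 2.45 against 14.2) and PDGFRA (1.66 and 2.22 against 11.6) were also lower in NT-D and NT-LW IT than in IV-D IT. DPPA5 was higher, at 281 and 359 against 49.6, and GDF3 had 9.68 and 6.73 against 8.26. The share of inner cell mass in each part was not measured, and its part in the differences between groups was not tested.

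**Figure D5:**
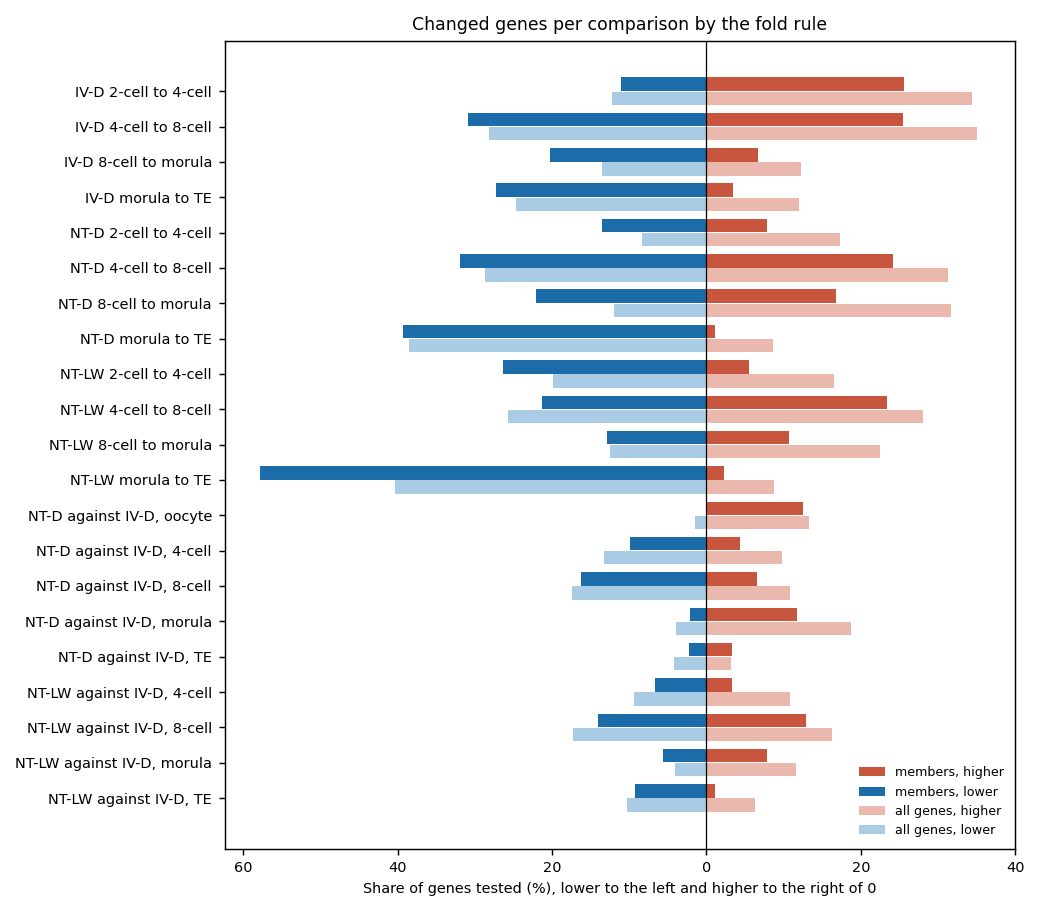
Share of members and of all tested genes called higher and lower, in percent, in 21 comparisons between stages and groups. The share of members lower reaches 57.8% from NT-LW morula to TE beside 40.3% of all genes.

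Partners of these genes outside the name rule were read from a list of 79 genes, of which 61 were in the table. From the IV-D 4-cell to 8-cell stage 14 of 61 rose and 16 fell, beside the 35.0% and 28.1% of all genes, with 2 higher and none lower of 11 kinetochore partners. Those that rose included HAUS2, a subunit of augmin, from 1.97 to 54.4, UBE2C, the ubiquitin-conjugating enzyme of the anaphase-promoting complex, from 242 to 1938, and CDC16, a subunit of that complex, from 5.29 to 60.3. CNTROB, a centriole protein, fell from 43.6 to 1.03. Of the 61 partners in the table, 10 were lower and 3 higher in NT-D than in IV-D at the 8-cell stage (17.4% and 10.8% of all genes). In NT-LW 11 were lower and 2 higher (17.3% and 16.3%), and the number tested is not given here for either group. UBE2S, which extends the ubiquitin chains, had 95.1 in NT-D and 50.1 in NT-LW against 479 in IV-D, and UBE2C was 896 and 686 against 1938. From morula to TE 20 of 60 fell and none rose in IV-D (24.6% and 12.0% of all genes).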

How the data were processed

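RNA was profiled in 23 libraries, 1 per condition, each from a pool of about 10 oocytes or embryos, or about 5 to 10 for clones. SMART-Seq v4 was used by the authors to amplify cDNA. Their paired-end reads were mapped on Sscrofa11.1 by Hisat2 (2.0.4) and counted on Ensembl genes by HTSeq (0.9.1), and the deposited values are FPKM. The table holds 8603 genes (82.8% to 97.2% of the fragments of a library), labelled as differentially expressed genes. The comparisons and limits behind that label are not given in the sources used here. Background shares are therefore shares within a set chosen for change, not shares of all annotated genes.

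The steps between FPKM values gave back whole fragments for 8602 genes within a tolerance of 0.02 fragments. This step and the fold rule were tested on simulated data. A gene was tested where FPKM reached 1 in either library and called where log2(FPKM + 1), pseudocount 1, differed by more than 1. Shares of all genes called served as background. No test between conditions was possible with 1 library each, and counting intervals are not tests of conditions. Below 3 fragments no fold is read as a bound.

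Genes were named by rule: in each role up to 4 with the highest mean FPKM, in each comparison up to 5 per direction with FPKM of at least 5, and a core set of mitotic genes. Members, roles, partners, markers and motifs were chosen with earlier results of these data known. Alternatives were median-ratio scaling, rescaling to a common sum (1000000), a pseudocount of 0.1, a limit of 5 on FPKM in place of 1 or none at all, core mitotic roles only, and an exact binomial test on fragments (adjusted p under 0.005 and a ratio over 2), which compares libraries, not conditions. Promoters were read from RefSeq positions on the same assembly, 250 bases upstream, for 90 members. The work used scipy 1.17.1, pandas 2.3.3, pysam 0.24.0, numpy 2.4.6 and matplotlib 3.10.9 under Python 3.11.15.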

Additional observations from a re-analysis of the deposited data

Results flagged for a closer look

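In 11 cases a member moved past the fold limit in one direction between stages of a clone group and past it in the other direction in IV-D. With 1 library per condition, none of these differences was tested. The share of all genes with such opposite calls is not given here, so the 11 are a list of cases and not a result about the members.

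Both clone groups start from the in vitro matured oocyte. From oocyte to 1-cell embryo, the log2 difference of KIF13B was 1.59 in NT-LW (FPKM 8.45 to 27.5) and -1.48 in IV-D (16.0 to 5.07). At the same step CEP89 was 1.02 in NT-LW (43.0 to 88.1) and -1.20 in IV-D (58.6 to 25.0), and the NT-LW value was 0.78 under median-ratio scaling.

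Steps that start or end at the 2-cell stage hold 6 of the cases, and which of the libraries of a step set them apart was not tested. PLK1 had a log2 difference of 1.14 from 1-cell to 2-cell embryo in NT-LW (25.9 to 58.1) and of -2.09 in IV-D (19.0 to 3.69), then of -1.81 from 2-cell to 4-cell embryo in NT-LW and of 2.07 in IV-D. At the latter step PLK3 had -3.13 in NT-LW (22.7 to 1.72) and 1.29 in IV-D (0.306 to 2.19), and CEP85 had -2.28 (38.4 to 7.11) and 1.32 (4.88 to 13.6), where the IV-D value of CEP85 was 0.60 under median-ratio scaling. KIF24 had -1.21 in NT-LW and 1.78 in IV-D, and KIF14 had -1.12 and 2.81.

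AURKB had a log2 difference of -1.27 from 4-cell to 8-cell embryo in NT-LW (34.7 to 13.7) and of 1.50 in IV-D (22.5 to 65.6). From morula to TE, TUBB2B had -1.15 in NT-D (4.01 to 1.26) and 2.09 in IV-D (1.11 to 7.96), and the NT-D value was -0.60 under median-ratio scaling. TUBB6 had 1.09 in NT-LW (4.75 to 11.2) and -1.39 in IV-D (21.1 to 7.45) at that step.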

How the results depend on the processing

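No paired analysis by replicate was possible, because each library was the only one of its condition and all were given the replicate number 1. For the same reason no replicate was left out. Counts of called members are higher plus lower.

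Of the 21 comparisons recomputed under every alternative, median-ratio scaling turned the balance of higher and lower for 6: IV-D 2-cell to 4-cell (36 called), NT-LW 4-cell to 8-cell (46), NT-D against IV-D in oocytes (13) and 8-cell embryos (23), and NT-LW against IV-D in 8-cell embryos (23) and morulae (12). The count fell to 18 for NT-D and 21 for NT-LW from morula to TE. Rescaling to a common sum turned the balance for NT-D 8-cell to morula (41), NT-LW 4-cell to 8-cell (51) and NT-LW 8-cell to morula (26), and gave 20 for NT-D against IV-D in morulae and 14 for NT-LW against IV-D at the 4-cell stage. A pseudocount of 0.1 turned the balance for NT-LW 4-cell to 8-cell (54) and gave 21 and 8 for NT-D against IV-D in morulae and TE and 17 for NT-LW in TE. A minimum FPKM of 5 gave 8 and 2 for NT-D in morulae and TE. Without a minimum FPKM all 21 counts stayed within 1.5 times.

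The exact binomial test on fragments, which compares libraries only, called 19, 32, 22 and 12 members for NT-D against IV-D in oocytes, 8-cell embryos, morulae and TE, and 21 and 20 for NT-LW in morulae and TE. For NT-LW 8-cell embryos it called 31, with the balance turned (16 higher, 15 lower).

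Restricting the members to kinetochore, checkpoint, kinase and mitotic kinesin genes lowers counts by construction. For the steps that end at the 4-cell stage, the 8-cell stage, the morula and TE they were 15, 18, 9 and 13 in IV-D, 9, 17, 17 and 16 in NT-D and 14, 18, 8 and 29 in NT-LW. The balance turned to more higher than lower at the 4-cell to 8-cell step of IV-D and NT-D and the 8-cell to morula step of NT-LW. Against IV-D the counts were 6, 4, 8, 2 and 1 for NT-D in oocytes, 4-cell and 8-cell embryos, morulae and TE, and 3, 10, 2 and 3 for NT-LW from the 4-cell stage.

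Of 173 values of named genes none changed sign under the pseudocount of 0.1, rescaling or median-ratio scaling, and 7 under median-ratio scaling and 4 under rescaling dropped below the limit. These values were named as the largest called differences of each comparison. Their kept sign therefore follows largely from the choice and is no measure of how stable the other members are. Where a scaling changed a count, the cause was not tested. Depth limits members with few fragments, such as TUBB6 before the 8-cell stage, more than it does TUBA1B or NDC80.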
